A study of Mus musculus with 16 samples.

Results

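The RNase footprints on the mouse mitochondrial 16S rRNA, mt-Rnr2, were mapped in heart mitochondria with and without LRPPRC. The mt-Rnr2 gene (ENSMUSG00000064339.1) lies on the plus strand of the mitochondrial genome, at chrM:1094-2675 in mm10, and its 1582 nt are rRNA throughout. A footprint was taken as a member when it was on the plus strand and its largest same-strand gene overlap, at least 1 nt, was with mt-Rnr2. Of the 302 footprints in the deposited lists, 37 met this rule, 22 of the 178 called in the control and 15 of the 124 called in the knockout. All 37 lay wholly inside the rRNA.

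Mitochondria came from hearts of male C57BL/6N mice aged 12 weeks. Control mice were Lrpprc loxP/loxP and knockout mice were Lrpprc loxP/loxP,Cre+, so both carried the floxed allele, and recombination was specific to heart and skeletal muscle. For each genotype, mitochondrial lysates were treated with RNase A (10 U per µl), RNase T1 (0.1 U per µl) or RNase If (0.01 U per µl), or were mock-digested, which gave 4 libraries per genotype. The 8 libraries of Slirp mice were not analysed here. A C score is the log10 ratio of the highest RNase-treated coverage over the mock-digested coverage at a position, so a low C score means little cleavage. Footprints were sought as stretches of 8 to 40 nt with a mean C score, the central C score, lower than both 3-nt flanks. The F score sums the central accessibility over that of each flank, so it is below 2 in any footprint and lowest in the deepest. Control-called footprints were found on the control track and have an F score that rose in the knockout, and knockout-called footprints were found on the knockout track and have an F score that fell there relative to the control. A stretch that was shielded alike in both genotypes is in neither list, so a nucleotide outside the lists need not be accessible. Since the 4 libraries of a genotype make 1 track, no replicates exist, no value has an error between mice, and no test was made. The promoter that drives Cre and the number of mice per library are not given in the sources used here. The lists hold no read counts, so the depth behind each footprint is unknown. They hold mitochondrial positions only, so the labelled tissue could not be checked against marker genes.

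The 16S rRNA is the RNA of the large subunit of the mitochondrial ribosome. It forms the peptidyl transferase centre, where peptide bonds are made, the A-loop, which holds the acceptor end of the incoming tRNA, and the sarcin-ricin loop, where translation factors that hydrolyse GTP dock. In the polycistronic transcript it lies between tRNA-Val (mt-Tv) and tRNA-Leu (mt-Tl1), from which it is cut by tRNA processing. LRPPRC is a pentatricopeptide repeat protein that acts in a complex with SLIRP and is known for its role in the stability, polyadenylation and translation of mitochondrial mRNAs.

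The footprints of both lists met at 4 sites on the rRNA, which are shown because they hold every nucleotide of the rRNA that lay under footprints of both lists. Sequences are those of the RefSeq mouse mitochondrial genome (GRCm38, the assembly of mm10), plus strand, 5′ to 3′, with T for U. Capitals mark nucleotides under a control-called and a knockout-called footprint.
chrM:1205-1240: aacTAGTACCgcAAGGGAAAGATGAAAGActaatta
chrM:1289-1308: ctAACTAGAAAACTTCTAac
chrM:2067-2125: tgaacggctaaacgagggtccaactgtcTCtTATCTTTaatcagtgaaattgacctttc
chrM:2453-2513: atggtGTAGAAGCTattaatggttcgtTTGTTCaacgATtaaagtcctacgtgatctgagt

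At chrM:1205-1240, near the 5′ end, the knockout-called footprint at 1208 to 1233 (F score 1.29, central C score 0.094) spanned parts of 2 footprints of the control. These were at 1205 to 1214 (F score 0.593, C score 0.015) and 1217 to 1240 (F score 0.654, C score 0.094). The knockout span covered the 2 nt between them, which served as flanks in the control, and 24 of the 36 nt of the site were in both lists. At chrM:1289-1308, the control-called footprint at 1291 to 1306 (F score 0.789, C score 0.047) lay wholly inside the knockout-called one at 1289 to 1308 (F score 1.12, C score 0.091). The knockout span was 2 nt longer at each end and covered the 2-nt gap to the next control-called footprint, at 1309 to 1316 (F score 0.868, C score 0.107).

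At chrM:2067-2125, in the middle of the rRNA, the 10-nt knockout-called footprint at 2095 to 2104 (F score 1.48, C score 0.050) sat across the junction of a control-called pair. The control pair was at 2067 to 2096 (F score 0.868, C score 0.038) and 2098 to 2125 (F score 0.672, C score 0.016), with 1 nt between. The first of the pair, with 30 nt, was the longest footprint on the rRNA in either list. Of the 59 nt of this site, 9 were in both lists.

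At chrM:2453-2513, close to the 3′ end, control-called footprints at 2458 to 2485 (F score 0.679, C score 0.042) and 2490 to 2513 (F score 0.413, C score -0.272) stood 4 nt apart. The second had the lowest F score of all 22 control-called footprints on the rRNA. The knockout-called footprint at 2480 to 2491 (F score 1.01, C score 0.114) bridged the 4 nt, and a second one at 2453 to 2466 (F score 0.966, C score 0.125) overlapped the 5′ part of the first control span. Both knockout spans were shorter than either control span, and 17 of the 61 nt were shared.

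Gaps of this kind were counted along the whole rRNA, a count chosen after the 4 sites were seen. Between neighbouring control-called footprints on mt-Rnr2 there were 8 gaps of 1 to 4 nt, and 4 of them (50.0%) lay entirely under a knockout-called footprint. Elsewhere on the plus strand there were 14 such gaps, of which 3 (21.4%) did. In the reverse direction, there were 0 such gaps between knockout-called footprints on mt-Rnr2, and elsewhere 3 of 5 (60.0%) lay entirely under a control-called footprint. The 4 gaps on mt-Rnr2 are the same 4 sites that led to the count, so it is a description of them, and no difference was tested. The lists were also called for opposite changes in F score, and how far this places footprints over such gaps was not tested.

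Counted over footprints, 7 of the 22 control-called ones (31.8%, 95% Wilson confidence interval 16.4 to 52.7%) overlapped a knockout-called one by at least 1 nt, and 5 of the 15 knockout-called ones (33.3%, 15.2 to 58.3%) overlapped a control-called one. All such intervals cover the counting of footprints only. On the plus strand outside mt-Rnr2 the shares were 31.2% of 125 control-called and 47.4% of 78 knockout-called footprints. Counted over nucleotides, 66 were in both lists, which is 17.6% of the 375 nt under control-called footprints and 38.4% of the 172 nt under knockout-called ones. Of these 66, 24 and 16 lay under the 2 knockout-called footprints of 20 nt or more, at chrM:1205-1240 and chrM:1289-1308. The other sites held 9 and 17. Outside mt-Rnr2 the shared nucleotides were 11.2% and 15.6% of those under footprints. On the rRNA, knockout-called footprints covered 17.6% of the nucleotides under control-called footprints and 8.78% of the others. Elsewhere on the plus strand these values were 11.2% and 10.8%. Neither contrast was tested, since nucleotides of 1 footprint are not independent.

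To place the footprints against the catalytic parts of the ribosome, 4 short sequences from conserved parts of large-subunit rRNAs were searched for. The search covered both strands of the mitochondrial genome, and how far each exact sequence is conserved was not examined. Each has 9 letters and occurred once in mt-Rnr2, nowhere else on the plus strand of the mitochondrial genome and not on the minus strand. GGATAACAG, from the central loop of domain V with the conserved adenosine of the peptidyl transferase centre, lay at 2374 to 2382. TGTTCAACG, from the A-loop, lay at 2481 to 2489, AGTTCAGAC, from the 3′ strand of the peptidyl transferase ring, at 2511 to 2519, and TACGAAAGG, from the sarcin-ricin loop, at 2565 to 2573. These matches place landmarks and are a description, not a measure of folding.

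A footprint of at least 1 list reached each landmark except the central loop of domain V. Over the whole rRNA, 30.4% of nucleotides were under a footprint of either list. A stretch of 9 nt is touched more often than a single nucleotide, and no enrichment at landmarks was tested. All 9 nt of the A-loop sequence were under the knockout-called footprint at 2480 to 2491, which is shown here with the 3 nt on each side in lower case and the footprint in capitals.
Knockout-called, A-loop: cgtTTGTTCAACGATtaa
The search sequence marks a position, and the ends of the loop itself were not placed. In the control, the first 5 nt of the same sequence were under the footprint at 2458 to 2485, so both lists covered those 5. The other 4 formed the gap before the footprint at 2490 to 2513. That second footprint, the deepest on the rRNA, reached 3 nt into the peptidyl transferase ring sequence and was followed by 141 nt without a control-called footprint.
Control-called, deepest: acgATTAAAGTCCTACGTGATCTGAGTtca
The nearest knockout-called footprint to the ring sequence ended 19 nt upstream of it.

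The sarcin-ricin sequence lay in that stretch, 51 nt from the nearest control-called footprint. In the knockout list, 6 of its 9 nt were under the footprint at 2563 to 2570 (F score 1.09), whose central C score of -0.235 was the lowest of the 15 knockout-called footprints on the rRNA.
Knockout-called, sarcin-ricin loop: cccAGTACGAAagg
The central loop of domain V was under no footprint of either list. The control-called footprint at 2356 to 2363 (F score 1.24, C score -0.123) ended 10 nt upstream of the sequence. It abutted, with no nucleotide between, the knockout-called footprint at 2346 to 2355 (F score 1.25, C score -0.014).

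In density, mt-Rnr2 carried 13.9 control-called and 9.48 knockout-called footprints per kb. The smaller rRNA, mt-Rnr1 (chrM:70-1024), carried 9.42 and 7.33, tRNA genes of the plus strand 11.6 and 5.26, and its mRNA genes 9.42 and 5.72. The plus strand outside mt-Rnr2 had 8.49 and 5.30. The knockout values depended on short and shallow footprints, on mt-Rnr2 and outside it. Counting those of at least 10 nt alone, they were 5.69 per kb on mt-Rnr2 and 4.01 outside it. With an F score of at most 1 they were 1.90 and 0.747. The control values under these filters were 9.48 and 6.46 by length, and 11.4 and 7.00 by F score. Control-called footprints covered 23.7% of the nucleotides of mt-Rnr2, against 22.3% of mt-Rnr1 and 15.2% of the plus strand outside mt-Rnr2. Knockout-called footprints covered 10.9% of mt-Rnr2, 8.90% of mt-Rnr1 and 10.8% of the plus strand outside mt-Rnr2. The knockout list had more footprints per kb on mt-Rnr2 than outside it but a similar share of covered nucleotides, as its footprints on the rRNA were short. Together the lists covered 30.4% of the rRNA, and 1101 nt (69.6%) were under no footprint.

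In 3 equal parts from the 5′ end, control-called midpoints numbered 10, 7 and 5, and knockout-called midpoints 3, 5 and 7. Control-called footprints covered 29.2%, 25.4% and 16.5% of these parts, and knockout-called ones 10.2%, 8.54% and 13.8%. In 4 equal parts, control-called midpoints numbered 8, 5, 5 and 4 and knockout-called ones 2, 2, 5 and 6, but coverage had no steady order, with 32.9%, 16.9%, 25.6% and 19.4% in the control list and 11.6%, 4.55%, 12.4% and 14.9% in the knockout list. The counts are small and no order was tested.

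Within 100 nt of the 5′ and 3′ ends of the rRNA there were 2 and 1 control-called footprints and 0 and 0 knockout-called ones. At 9.48 knockout-called footprints per kb, 100 nt of the rRNA hold fewer than 1 on average, so 0 is near the background. The control list had 13.9 per kb over the rRNA, so its 2 and 1 are near the background too. The first control-called footprint was at 1147 to 1157 (F score 1.14, C score -0.0098), beginning at nt 54 of the rRNA, and the last at 2655 to 2671 (F score 0.801, C score 0.016), which ended 4 nt before the 3′ end. The first knockout-called footprint, at 1208 to 1233, began at nt 115, and the last, over the sarcin-ricin loop, ended 105 nt before the 3′ end. In the flanking tRNA mt-Tv (chrM:1025-1093) there were control-called footprints at 1059 to 1080 (F score 0.740) and 1082 to 1090 (F score 0.829), the latter 3 nt from the rRNA. In mt-Tl1 (chrM:2676-2750) they were at 2709 to 2719 (F score 0.637) and 2732 to 2749 (F score 0.455). Over all plus-strand tRNAs, control-called footprints numbered 11 in 951 nt, or 11.6 per kb, and no difference was tested. Neither tRNA had a knockout-called footprint, and all plus-strand tRNAs together had 5 in 951 nt, or 5.26 per kb, so this too is near the background.

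Where neighbours within 3 nt were joined, 11 of the 22 control-called ones (50.0%) fell into 5 chains, against 26 of 125 (20.8%) with such a neighbour on the plus strand outside mt-Rnr2 and 4 of 9 (44.4%) on mt-Rnr1, and no difference was tested. The longest chain spanned 63 nt at 1178 to 1240 and held 3 footprints, of which the first, at 1178 to 1202, had an F score of 0.727 and a C score of 0.048. The other chains, each of a pair, were at 1291 to 1316, 1352 to 1389, 1849 to 1883 and 2067 to 2125. In the chain at 1352 to 1389, the footprint at 1352 to 1360 was shallow (F score 1.12, C score 0.154) and its neighbour at 1363 to 1389 deeper (F score 0.694, C score 0.047). In the chain at 1849 to 1883, the first footprint, at 1849 to 1874, was the second deepest on the rRNA (F score 0.503, C score 0.147), and the other, at 1876 to 1883, had an F score of 0.737 and a C score of 0.094. None of the 15 knockout-called footprints had a neighbour of its own list within 3 nt, and the smallest gap was 5 nt. Such neighbours were few in the knockout list elsewhere too, with 4 of 78 (5.13%). The longest stretch with no control-called footprint was 218 nt, at 1614 to 1831, and that with no knockout-called one 278 nt, at 1309 to 1586. Neither list had a footprint in the 144 nt from 1688 to 1831.

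In the control list, F scores on mt-Rnr2 ran from 0.413 to 1.25 with a median of 0.710, against a median of 0.827 over the 125 other plus-strand footprints. The 3 deepest were at 2490 to 2513, described above, at 1849 to 1874 and at 1990 to 2013 (F score 0.554, C score -0.077), and all 3 were 24 nt or longer. The 2 latter are shown, with 3 flanking nt on each side in lower case, since neither overlapped a knockout-called footprint.
Control-called, chrM:1849-1874: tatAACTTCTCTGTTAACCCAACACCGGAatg
Control-called, chrM:1990-2013: agtGACTAAAGTTTAACGGCCGCGGTAtcc
The shallowest, at 1832 to 1840 (F score 1.25), had the highest central C score of the whole control list on the plus strand, 0.318, so its coverage was on average higher with RNase than in the mock digestion. F scores of the 9 footprints of 20 nt or more ran from 0.413 to 0.868 and those of the 9 of at most 10 nt from 0.593 to 1.25. Across the 22 footprints, Pearson's r of length with F score was -0.48 and Spearman's rho -0.39, given as a description since the footprints share 1 track.

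In the knockout list, F scores on mt-Rnr2 ran from 0.955 to 1.51 with a median of 1.16, against 1.33 over the 78 other plus-strand footprints. Among these the median was lower on mt-Rnr1 (1.01, 7 footprints) and on tRNAs (0.641, 5 footprints), and higher on mRNAs (1.36, 62 footprints). The lowest values were 0.955 at 1587 to 1594 (C score -0.027), 0.966 at 2453 to 2466 and 0.982 at 1953 to 1960 (C score 0.178), and the highest was 1.51 at 1678 to 1687 (C score 0.017). Of the 15 values, 3 were at most 1, against 18 of 22 in the control list. Outside mt-Rnr2 the counts were 11 of 78 and 103 of 125, so the contrast runs through both lists as a whole, which were called on different tracks. The knockout-called footprint with the lowest F score lay 4 nt upstream of a control-called one at 1599 to 1613 (F score 0.580, C score -0.057). The footprints not named singly were 3 control-called ones of 9 or 10 nt, with F scores from 0.621 to 0.772, and 5 knockout-called ones of 8 to 10 nt, with F scores from 1.07 to 1.26. Among the knockout-called footprints, length and F score had an r of 0.099 and a rho of 0.22 over the 15 footprints.

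Knockout-called footprints on mt-Rnr2 were short. Their median length was 10 nt, with a range of 8 to 26 nt, and 11 of 15 were at most 10 nt long. The median was 18.5 nt over the plus strand outside mt-Rnr2, where 23 of 78 were at most 10 nt long, 23 nt on mRNAs and 9 nt on mt-Rnr1. Control-called footprints on mt-Rnr2 had a median length of 15.5 nt, with a range of 8 to 30 nt, against 16 nt outside it. Among those of at least 10 nt on mt-Rnr2 the median was 24 nt. The 2 knockout-called footprints of 20 nt or more were those at 1208 to 1233 and 1289 to 1308, and both overlapped control-called footprints in the 5′ part of the rRNA.

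Central C scores on mt-Rnr2 lay on both sides of 0 in both lists. Among control-called footprints on the rRNA, 7 of 22 (31.8%, 95% Wilson confidence interval 16.4 to 52.7%) had a central C score below 0, that is, on average less coverage with the strongest RNase than in the mock digestion. Outside the rRNA 85 of 125 (68.0%, 59.4 to 75.5%) did. The medians were 0.040 on mt-Rnr2, or 0.0165 with footprints of at least 10 nt only, and -0.059 outside it. Among knockout-called footprints the medians were 0.050 on mt-Rnr2, or 0.0915 with footprints of at least 10 nt only, and 0.027 outside it. Of these footprints, 6 of 15 were below 0 on mt-Rnr2 (40.0%, 19.8 to 64.3%) and 11 of 78 outside it (14.1%, 8.06 to 23.5%). Neither contrast was tested, since the footprints of a list share 1 track. On mt-Rnr1 the counts were 4 of 9 and 5 of 7, on plus-strand tRNAs 5 of 11 and 3 of 5, and on mRNAs 75 of 102 and 3 of 62. The control-called medians were 0.0231 on mt-Rnr1, 0.0114 on tRNAs and -0.0824 on mRNAs, so a median above 0 was not particular to mt-Rnr2. The authors added 1 to each normalized coverage value before taking the ratio, which draws C scores towards 0 where coverage is low. The part of coverage in these values was not tested, since the lists do not give it.

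Base composition under footprints was near that of the whole rRNA. RNase A cuts after pyrimidines and RNase T1 after G, so of the enzymes used only RNase If can cut after A. The whole rRNA has 38.2% A, 19.2% C, 16.2% G and 26.4% T. A made up 36.5% of the nucleotides under control-called footprints, 34.9% of those under knockout-called ones and 39.3% of those under neither. In the 3-nt flanks A made up 39.4% and 38.9%. Pyrimidines were 45.1% of nucleotides under control-called footprints and 48.8% under knockout-called ones, against 45.6% in the whole rRNA. Some short footprints were richer in A, such as the control-called one at 1352 to 1360 with 77.8%. The knockout-called footprint at 2095 to 2104 had 70.0% T.

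Opposite the rRNA, on the minus strand, there was 1 footprint in the control list and 0 in the knockout list, each of 31 minus-strand footprints. It was at 1787 to 1798 (F score 0.633, C score 0), inside the longest stretch of the rRNA without a control-called footprint.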

How the data were processed

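Mitochondrial RNA of RNase-treated and mock-digested heart mitochondria had been sequenced as small RNA, with 4 libraries per genotype and technical replicates pooled. The authors trimmed adapters with cutadapt 1.10, aligned reads to mm10 with Bowtie2 2.2.9, kept properly paired fragments of 15 to 35 nt on the mitochondrial genome and normalized 5′ coverage to library size with BEDtools 2.26.0. Footprints were called by the authors at a false discovery rate of 5% against 1000 shufflings of the C scores, which were made on 1 track per genotype. The deposited values used here are each footprint's position, strand, length, central C score (a log10 ratio) and F score (a sum of ratios). The 1 further column in each list holds the authors' own log2 comparison of F scores between genotypes and was not used. Depth is not given in the sources used here.

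Genes came from GENCODE vM21 and sequence from RefSeq, whose mt-Rnr2 slice was identical to the GENCODE transcript. Positions are 1-based. Overlap, spacing, coverage, base composition and landmarks were computed with Python 3.11.15, NumPy 2.4.6, SciPy 1.17.1, pandas 2.3.3 and Matplotlib 3.10.9, and the interval functions were tested on simulated data. Footprints described singly were the 3 deepest, the shallowest, the first, last and longest of each list, those overlapping the other list, those within 3 nt of a neighbour and those nearest a landmark. The footprint at 1599 to 1613 was named after its values were seen. The rRNA and all rules were chosen with earlier results of these data known. Alternatives were other rules of assignment and overlap, merging within 3 nt, a length of at least 10 nt, an F score of at most 1, other parts and other flanks.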

Additional observations from a re-analysis of the deposited data

How the results depend on the processing

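Of 44 alternative values for 18 results, 37 stayed within 1.5 times the value (counts and ratios) or inside its 95% interval over footprints or nucleotides (medians and shares), 7 moved and 0 reversed. Some of the 37 could not have moved. Every footprint lay wholly inside the rRNA, so requiring 50% of it inside changed no value. In the knockout list no footprint was antisense or within 3 nt of a neighbour, so counting either strand or merging left 9.48 per kb. With footprints of at least 10 nt only, knockout-called footprints fell from 9.48 to 5.69 per kb of mt-Rnr2, and coverage moved to 19.9% in the control list and 7.71% in the knockout list. The same filter took 3 medians past 1.5 times their value, though inside their wide intervals: control length from 15.5 to 24 nt, control C score from 0.0404 to 0.0165 and knockout C score from 0.0503 to 0.0915. With an F score of at most 1, the knockout list kept 3 footprints, or 1.90 per kb, which covered 1.90% of the rRNA with 26.7% A, and control coverage was 21.4%. These follow from the construction of the alternatives, which leave out footprints. With 7 and 5 overlapping footprints, requiring 3 shared nt left 5 and 5, and allowing 3 nt between gave 9 and 6. No paired analysis was possible because each genotype has 1 combined track, and no replicate could be left out for the same reason. Depth per library is unknown, so shallow and deep footprints cannot be told apart by their read support, and all statements concern these 2 tracks.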
